A study of Drosophila melanogaster with 10 samples.

Results

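The genes described here are 8 that encode heterochromatin proteins and histone H3 lysine 9 (H3K9) methyltransferases: the methyltransferase genes egg, Su(var)3-9 and G9a, the HP1 genes HP1a, HP1b and HP1c, and the genes of the HP1-associated proteins HP4 and Su(var)3-7. They were taken by their FlyBase symbols, and all 8 were found among the 13937 genes of the tables. RNA was measured in the Drosophila S2 cell line, a single cultured line with hemocyte-like character, after depletion of the nucleoporin Elys. The libraries of each group are biological replicates. Elys-KD cells (2 libraries) received dsRNA against Elys and control cells (2 libraries, labelled Control-KD) received dsRNA against LacZ, in each case for 3 days and again for 2 days. The other 6 samples of the series are DamID-seq libraries of embryos, which were not used here.

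Silent chromatin around centromeres and on the fourth chromosome of Drosophila carries methyl groups on H3K9. Methyltransferases place this mark, and the chromodomain of HP1 proteins binds it. The chromoshadow domain of HP1 then joins HP1 molecules to each other and to partner proteins, so that the mark and its readers spread together. In flies several of these genes were found as suppressors of position effect variegation, which gave them the name Su(var). Much of this chromatin lies at the nuclear periphery, where Elys is part of the nuclear pore complex. The comparison asks whether RNA of the genes that write and read the mark changed when Elys was depleted.

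Estimated counts summed to 58200996 and 57622326 in the Elys-KD libraries and to 68034643 and 61350395 in the control libraries. Elys itself had 4.96 and 4.55 TPM (transcript abundance corrected for length and depth) in Elys-KD cells, against 28.3 and 30.2 TPM in control cells, so 16.3% of its RNA was left. Of 9 hemocyte markers, 8 had a mean of at least 1 TPM and NimC1 was near 0, and their summed level was 797 to 839 TPM in Elys-KD cells and 828 to 860 TPM in control cells. The 3 neuronal markers summed to 3.67 to 4.31 TPM in Elys-KD cells and 3.18 to 4.02 TPM in control cells, and the 3 muscle markers to 11.2 to 12.3 TPM in Elys-KD cells and 7.80 to 8.33 TPM in control cells, almost all of it Mlc2. Of the ovarian markers only bam (43.2 to 46.2 TPM in Elys-KD cells, 53.4 to 54.8 TPM in control cells) and tj (near 0) were matched. Of 8 hemocyte markers tested in edgeR, Pxn (log2 difference 0.63) and ush (0.19) were higher and Pvr (-0.31) was lower in Elys-KD cells, and of the others brp (1.30, under 1 TPM in every library) and Mlc2 (0.51) were higher and bam (-0.31) was lower, all with an adjusted p under 0.05. The part of these markers in the results was not tested. The sequenced fragments were shorter in Elys-KD cells, since gene length exceeded effective length by a median of 184.1 and 184.4 bp in the Elys-KD libraries and by 203 and 204.7 bp in the controls. The part of this difference in the results was tested only through an offset for effective length.

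Among the 8 genes, G9a and Su(var)3-7 fell in Elys-KD cells and no gene rose. G9a fell by 0.23 on the log2 scale and Su(var)3-7 by 0.12. The call of G9a held in 10 of 14 alternative settings and that of Su(var)3-7 in 1 of 14, and the value of Su(var)3-7 was -0.055 in limma on log2(TPM + 1). In edgeR's quasi-likelihood test on counts scaled by edgeR's TMM factors, these 2 of 8 genes had an adjusted p under 0.05 (Benjamini-Hochberg over the 9156 genes tested), and 0 were higher. Of all tested genes 16.6% were called, 8.56% lower and 8.07% higher. All 8 genes passed the filter on low counts, the smallest value being 2465 estimated counts. Before adjustment 6 of the 8 had a p under 0.05 in edgeR, all of them lower in Elys-KD cells, against 32.6% of all tested genes at that p (16.7% lower and 15.9% higher). None of the 8 was higher at that p. Among all 12514 genes with a p from DESeq2, 719 were called lower and 561 higher. Of the 8, DESeq2 called 2 lower and 0 higher, of which G9a was shared with edgeR and HP1a was not. None changed by more than 1.5-fold in mean TPM, a size that together with the test held for 3.19% of tested genes (2.54% higher and 0.644% lower).

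The log2 fold changes of the 8 genes had a median of -0.11, whereas the median of all tested genes was 0.00027. Taken without sign, the median was 0.110 for the 8 genes and 0.095 for all tested genes. The tested genes include many with far fewer counts and larger standard errors, so these medians are not of like precision. Values were negative for 7 genes and positive for HP4, and each gene kept its sign in all 14 alternative settings. On the TMM-scaled log2 scale of CPM (counts corrected for depth only), both Elys-KD libraries lay below both controls for 7 of the 8 genes, a pattern shown by 30.6% of all tested genes, and above both controls for 0 of the 8, against 30.0%. On the TPM scale the same held for 6 of the 8, against 21.9% of tested genes, and the reverse held for 1 of the 8 (HP4), against 37.2%. Elys itself had a log2 fold change of -2.67 (edgeR adjusted p = 1.3e-06). In bulk RNA, fewer cells that express a gene and less RNA per cell cannot be told apart.

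**Figure D1:**
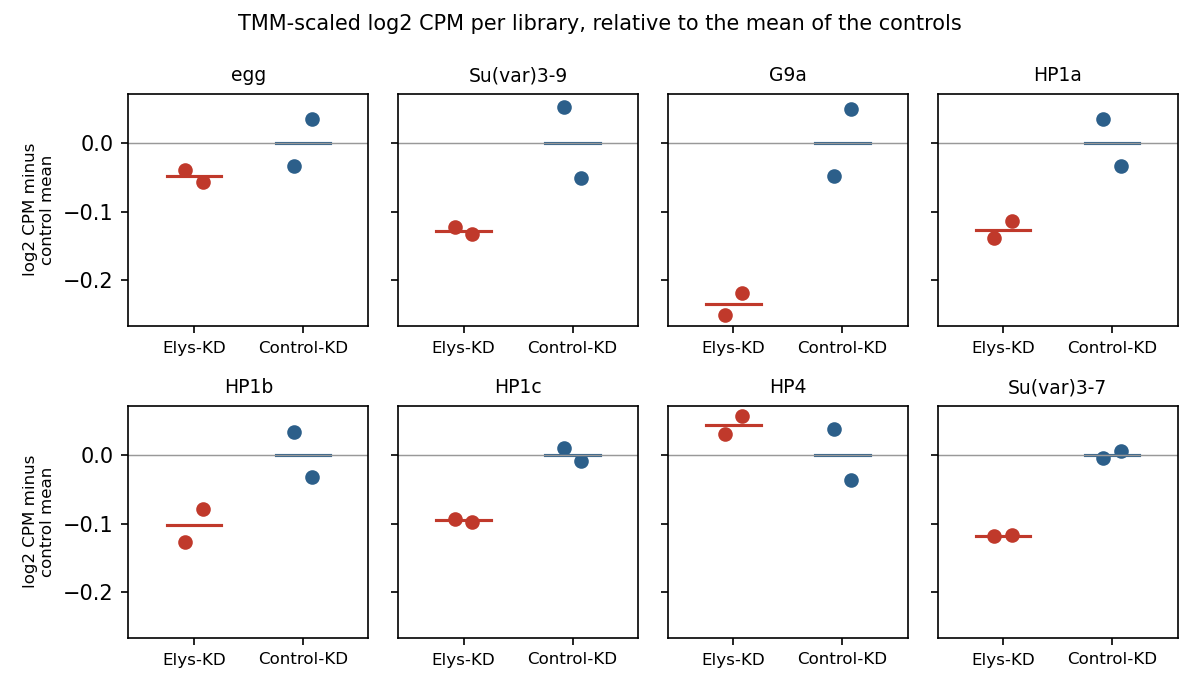
TMM-scaled log2 CPM of each gene in each library, minus the mean of the control libraries (points, libraries; bars, group means). Both Elys-KD points lie under both control points for every gene except HP4.

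The 8 genes differed widely in level. In order of mean TPM they ran HP1a, HP4, HP1b, HP1c, Su(var)3-9, egg, Su(var)3-7 and G9a, and the order was the same in Elys-KD and control cells. Neighbours in this order did not overlap in any group of libraries. However, the closest neighbours were near each other: HP1b was 1.045 times HP1c in Elys-KD cells and 1.043 times in control cells, and egg was 1.105 times Su(var)3-7 in Elys-KD cells and 1.066 times in control cells. HP1a ranked 214 among 13937 genes by mean TPM in Elys-KD cells and 199 in control cells, while G9a ranked 6320 in Elys-KD cells and 6150 in control cells. The summed level of the 3 HP1 genes was 814 ± 4.56 TPM in Elys-KD cells and 873 ± 13.0 TPM in control cells (SD, n = 2), and that of the 3 methyltransferase genes was 62.4 ± 1.33 TPM in Elys-KD cells and 65.6 ± 0.249 TPM in control cells (SD, n = 2).

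**Figure D2:**
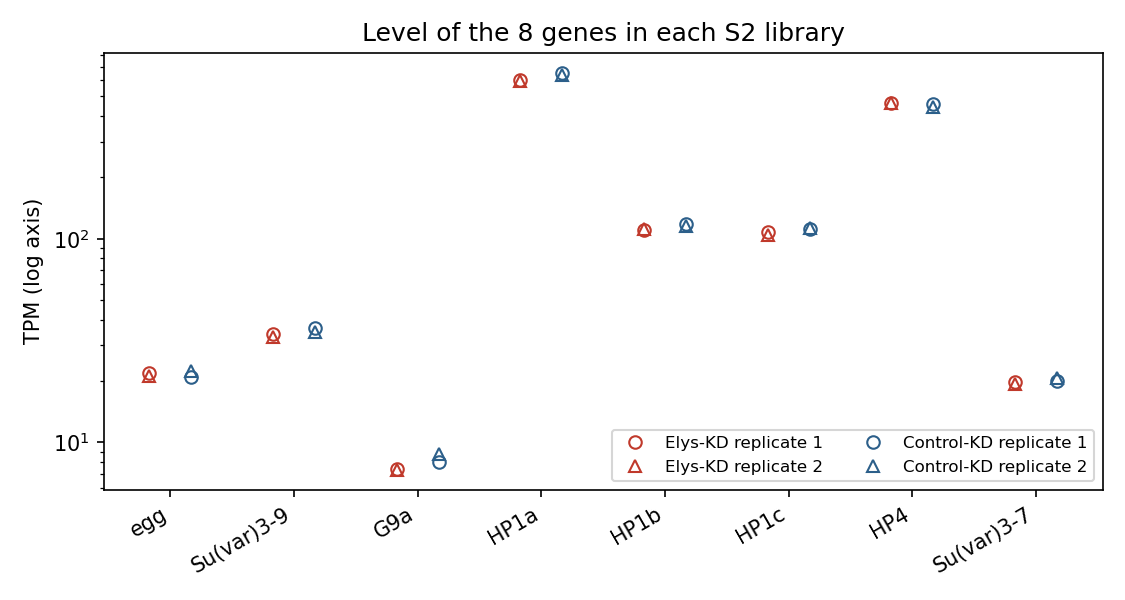
TPM (log axis) of the 8 genes in the 4 libraries, circles for replicate 1 and triangles for replicate 2. Levels span from about 7.35 TPM (G9a, Elys-KD replicate 2) to 652 TPM (HP1a, control replicate 1), and differences between genes are far larger than those between groups.

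G9a (FBgn0040372), an H3K9 methyltransferase of the EHMT type that acts largely on euchromatin, was the weakest expressed of the 8 genes and changed most. It had 7.38 and 7.35 TPM in Elys-KD cells, against 7.99 and 8.76 TPM in control cells. The estimated counts behind these values were 2465 and 2498 in Elys-KD cells and 3250 and 3143 in control cells. The groups did not overlap, and the 2 Elys-KD libraries lay closer to each other than the 2 controls. Its log2 value, Elys-KD over control, was -0.23 with a 95% interval from -0.33 to -0.14 (SE 0.042, edgeR adjusted p = 0.0120). The call did not hold without control replicate 2, the library with the highest G9a level, where the value was -0.18 (edgeR adjusted p = 0.0530). It also did not hold in limma on log2(TPM + 1), where the value was -0.16 (adjusted p = 0.141).

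Su(var)3-9 (FBgn0263755) encodes the methyltransferase of pericentric heterochromatin. Its level was 34.0 and 32.9 TPM in Elys-KD cells and 36.5 and 34.7 TPM in control cells. The groups lay apart, but by less than the distance between the control replicates. The log2 fold change of -0.13 (standard error 0.042, 95% interval -0.23 to -0.030) did not pass the threshold (edgeR adjusted p = 0.0813), and it was -0.078 without control replicate 1. In flies this gene shares its promoter and first exons with eIF2gamma, a subunit gene of translation initiation factor eIF2, and the 2 genes overlap in the Release 6 annotation. Estimated counts of Su(var)3-9 were not whole numbers in any of the 4 libraries, as happens where Salmon divides fragments between genes. eIF2gamma had 280 and 274 TPM in Elys-KD cells and 277 and 281 TPM in control cells, a log2 difference of -0.044 (edgeR adjusted p = 0.366). Su(var)3-9 amounted to 0.121 and 0.120 of the eIF2gamma level in Elys-KD cells and to 0.132 and 0.124 in control cells. With the counts of both genes summed, the log2 fold change was -0.056. Most of that sum is eIF2gamma, with 25841 to 30939 estimated counts per library against 3833 to 5040 for Su(var)3-9. The summed value therefore says little about Su(var)3-9 itself.

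egg (FBgn0086908), also known as eggless, encodes the SETDB1 methyltransferase, which acts on the fourth chromosome and in piRNA-guided silencing. It had 21.96 and 21.2 TPM in Elys-KD cells, against 20.9 and 22.4 TPM in control cells. The Elys-KD values lay between those of the controls. The estimate for egg was -0.049 on the log2 scale (95% interval -0.14 to 0.038, edgeR adjusted p = 0.409), and it lay between -0.085 (without control replicate 1) and -0.012 (without control replicate 2) with a library left out. Relative to egg within a library, G9a reached 0.336 and 0.347 of its TPM in Elys-KD cells and 0.382 and 0.391 in control cells, a ratio chosen after the values were seen. The G9a share of the summed methyltransferase TPM was 11.7 and 12.0% in Elys-KD cells and 12.2 and 13.3% in control cells, and the egg share was 34.7 and 34.5% in Elys-KD cells and 32.0 and 34.0% in control cells.

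HP1a (FBgn0003607), which FlyBase lists under a Su(var) symbol, encodes the main HP1 protein of fly heterochromatin. It had 599 and 594 TPM in Elys-KD cells, against 652 and 636 TPM in control cells. All values rest on at least 25305 estimated counts, and the groups did not overlap. On the log2 scale the fold change was -0.13 (SE 0.036, 95% interval -0.21 to -0.041) and just missed the threshold (edgeR adjusted p = 0.0553). With the effective length of each gene as an offset it was -0.14 (edgeR adjusted p = 0.0369). This offset takes in the shorter fragments of Elys-KD cells only through effective length, and other effects of them were not tested. In DESeq2 the log2 fold change was -0.13 (adjusted p = 0.00824). Without control replicate 1 it was -0.094, with an adjusted p of 0.322 from edgeR.

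HP1b (FBgn0030082), an HP1 protein found in both heterochromatin and euchromatin, had 110 and 111 TPM in Elys-KD cells, against 118 and 116 TPM in control cells. HP1c (FBgn0039019), which binds mostly in euchromatin, had 108 and 105 TPM in Elys-KD cells, against 112 and 113 TPM in control cells. For both genes the Elys-KD libraries lay below the controls. The log2 fold changes were -0.10 for HP1b (95% interval -0.19 to -0.012, edgeR adjusted p = 0.115) and -0.096 for HP1c (95% interval -0.17 to -0.020, edgeR adjusted p = 0.0866), so neither passed. HP1c overlaps CG17141 in the annotation, and the counts of HP1c were not whole numbers. Counts of CG17141 were between 1557 and 1604 in Elys-KD cells and between 1663 and 1820 in control cells, with a log2 fold change of -0.0077.

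The mix of the HP1 genes differed little between groups. HP1a made up 73.3 and 73.3% of their summed TPM in Elys-KD cells and 73.9 and 73.6% in control cells. The share of HP1b was 13.5 and 13.7% in Elys-KD cells, against 13.4 and 13.4% in control cells. That of HP1c was 13.2 and 12.9% in Elys-KD cells, against 12.7 and 13.0% in control cells, and the groups overlapped. The differences between group means were -0.41, 0.22 and 0.19 percentage points for HP1a, HP1b and HP1c. With each library left out in turn they ranged from -0.59 to -0.23 points for HP1a, from 0.11 to 0.33 for HP1b and from 0.0075 (without control replicate 1) to 0.37 (without control replicate 2) for HP1c. These shares do not depend on scaling between libraries. With 2 against 2 libraries an exact two-sided permutation test cannot give a p under 0.33, so no test was run on them.

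HP4 (FBgn0035829), also named Hip, encodes a protein that binds HP1 and was the only gene of the 8 with a positive value. It had 465 and 462 TPM in Elys-KD cells, against 459 and 446 TPM in control cells. On the TPM scale the Elys-KD values lay just above the controls, and on the log2 CPM scale the groups overlapped. The log2 fold change was 0.042 (95% interval -0.050 to 0.13, edgeR adjusted p = 0.504), with 0.0020 under the effective length offset and 0.0084 without control replicate 2. HP4 has the shortest transcripts of the 8 genes, listed at 645 bp, and its effective length was 4.18% longer in Elys-KD than in control cells, the largest such difference of the 8. The ratio of HP4 to HP1a within a library, chosen after the values were seen, was 0.776 and 0.777 in Elys-KD cells and 0.704 and 0.701 in control cells. In estimated counts this ratio was 0.438 and 0.439 in Elys-KD cells, against 0.391 and 0.389 in control cells.

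Su(var)3-7 (FBgn0003598), a zinc-finger protein of heterochromatin that binds the HP1a protein, had 19.8 and 19.3 TPM in Elys-KD cells, against 20.0 and 20.6 TPM in control cells. Estimated counts were 4432 and 4392 in Elys-KD cells and 5491 and 5000 in control cells. The replicates of each group were close on the log2 CPM scale, at a distance of 0.00038 in Elys-KD cells and 0.011 in control cells. In edgeR the difference was -0.12 on the log2 scale (SE 0.032, 95% interval -0.19 to -0.042, edgeR adjusted p = 0.0473). This call was at the edge of the threshold. It ended without any single library (adjusted p between 0.111 and 0.219 from edgeR) and in DESeq2 (adjusted p = 0.106), and only RLE size factors kept it.

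Su(var)3-7 was also the gene of the 8 whose listed length differed most. Salmon lists for each gene a length weighted by the use of its annotated transcripts. For Su(var)3-7 it was 4523 and 4524 bp in Elys-KD cells, against 4579 and 4561 bp in control cells. The means differed by -46.3 bp or -1.01%, with no test. A change at least that large in either direction was seen in 952 tested genes, or 10.4%. Only 3985 of the 9156 tested genes have a listed length that varies, and in 48.2% of those the groups lay apart. Su(var)3-7 overlaps TBC1D5 in the annotation, and its counts were not whole numbers in 3 libraries. TBC1D5 had 22.5 and 20.8 TPM in Elys-KD cells, against 20.0 and 20.8 TPM in control cells. The log2 fold change of TBC1D5 was 0.049 (edgeR adjusted p = 0.429). With the counts of both genes summed the value was -0.061 (edgeR adjusted p = 0.256), which also holds the change of TBC1D5. TBC1D5 gave 2350 to 2677 estimated counts per library to that sum, and Su(var)3-7 4392 to 5491. With the effective length as an offset the log2 fold change of Su(var)3-7 was -0.090 (edgeR adjusted p = 0.104). For G9a the listed length was 6640 and 6660 bp in Elys-KD cells and 6685 and 6653 bp in control cells, which overlap. Su(var)3-9, egg and HP1c have 1 listed length each, and those of HP1a, HP1b and HP4 differed by -0.019%, -0.23% and -0.037%.

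**Figure D3:**
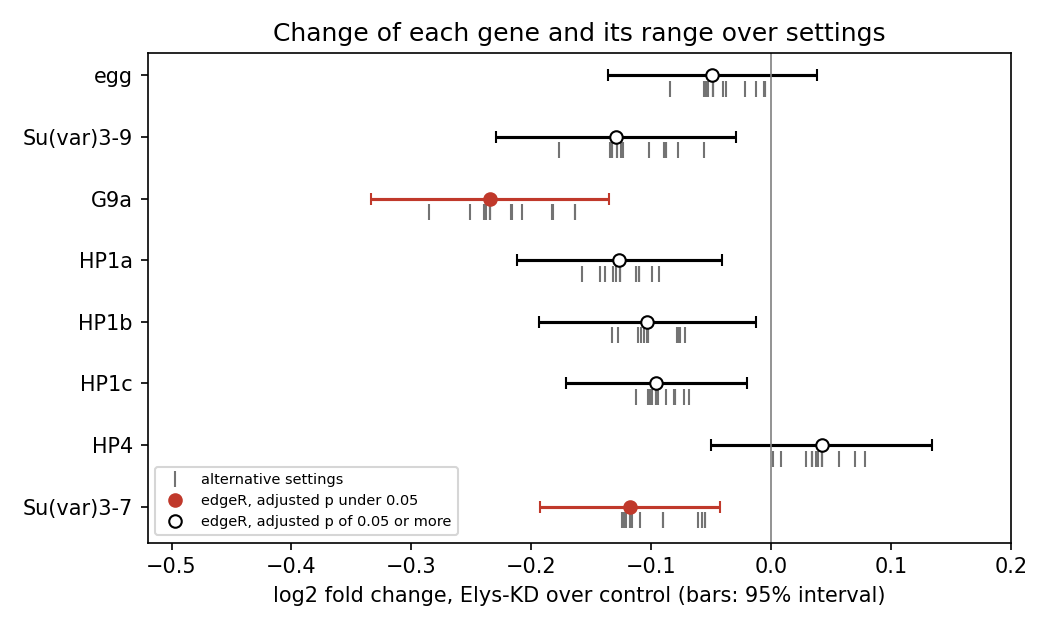
Log2 fold change, Elys-KD over control, of each of the 8 genes (circles) with 95% intervals from edgeR, filled where the adjusted p was under 0.05, and the values under the 14 alternative settings (ticks). Only the intervals of egg and HP4 include 0, and the ticks of each gene stay on the side of 0 of its circle.

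By level and change over the 4 libraries, the 3 tested genes closest to HP1a in log2 CPM were spi, Pp1-87B and Hel25E, at Euclidean distances of 0.049, 0.062 and 0.072. spi encodes an EGF receptor ligand, Pp1-87B a catalytic subunit of protein phosphatase 1, and Hel25E an RNA helicase of mRNA export. Their log2 fold changes were -0.14, -0.072 and -0.11. With 4 libraries, such closeness describes level more than pattern.

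Partners and cofactors of these 8, H3K9 demethylases with other antagonists or cofactors of removal, and other histone methyltransferases made up 6 lists of 49 genes. Of these, 47 were tested. In these lists 8 genes were lower and 1 higher at an adjusted p under 0.05 from edgeR. That is 19.1% of the genes tested, against 16.6% of all tested genes changed in either direction (8.56% lower and 8.07% higher). The median log2 fold change over the lists was -0.055. The count of lower genes in the lists was smaller with either control library left out, as was the count of lower genes over all tested genes.

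Of 11 cofactors of H3K9 methylation and of piRNA-guided silencing, 10 were tested and only piwi passed (10.0%, against 16.6% of all tested genes in either direction). piwi encodes the nuclear Argonaute protein that carries piRNAs to their targets. It had 1.96 and 2.14 TPM in Elys-KD cells, against 3.16 and 3.31 TPM in control cells. Its log2 value of -0.70 (SE 0.099, edgeR adjusted p = 0.00536) was larger in size than that of any of the 8 genes, and it stayed between -0.78 and -0.62 with each library left out in turn, always with an adjusted p under 0.05. The level is low, at 292 to 569 estimated counts. wde, the cofactor of the egg protein, had a log2 fold change of -0.22 with 8.30 to 9.45 TPM in Elys-KD cells and 9.50 to 10.6 TPM in control cells and did not pass (edgeR adjusted p = 0.0526).

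Among 17 HP1a partners and other proteins of heterochromatin, satellite repeats and telomeres, 4 were lower and 1 was higher (29.4%, against 16.6% of all tested genes in either direction, 8.56% lower and 8.07% higher), and the median log2 fold change was -0.11. Rif1, which delays the replication of satellite DNA, had 103 and 97.8 TPM in Elys-KD cells, against 109 and 114 TPM in control cells, with a log2 difference of -0.20 (edgeR adjusted p = 0.0110). SuUR, named Suppressor of Underreplication for its mutant phenotype, differed by -0.16 on the log2 scale (edgeR adjusted p = 0.0154). LBR, the lamin B receptor of the inner nuclear membrane, differed by -0.19 (edgeR adjusted p = 0.0192). D1, an AT-hook protein of satellite DNA, had 303 and 296 TPM in Elys-KD cells, against 321 and 326 TPM in control cells (log2 fold change -0.14, edgeR adjusted p = 0.0237). The gene that rose was moi, of the telomere cap, with 16.4 and 16.1 TPM in Elys-KD cells and 13.9 and 14.7 TPM in control cells (log2 fold change 0.15, edgeR adjusted p = 0.0404). In DESeq2 neither moi (adjusted p = 0.231) nor SuUR (adjusted p = 0.0576) passed. Without control replicate 2 none of Rif1 (edgeR adjusted p = 0.0946), SuUR (0.0689), LBR (0.122) and D1 (0.139) passed. Without control replicate 1 the calls of SuUR (edgeR adjusted p = 0.0551), D1 (0.144) and moi (0.168) ended, without Elys-KD replicate 1 those of D1 (0.0601) and moi (0.112), and without Elys-KD replicate 2 that of moi (0.113).

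The HP1c protein works with WOC and ROW. Their genes woc and row had log2 fold changes of -0.16 (edgeR adjusted p = 0.0320) and -0.12 (edgeR adjusted p = 0.0843). The third gene of that list, Ubqn, stood at 0.029. Of these 3 genes woc alone passed (33.3%, against 16.6% of all tested genes in either direction). woc had 62.9 and 57.8 TPM in Elys-KD cells, against 64.0 and 66.9 TPM in control cells, and its call ended without control replicate 2 (edgeR adjusted p = 0.186), without control replicate 1 (0.111) and without Elys-KD replicate 2 (0.0893). Of 7 genes listed as demethylases, other antagonists or cofactors of removal, only HDAC1 passed, lower in Elys-KD cells. That is 14.3%, against 16.6% of all tested genes in either direction. HDAC1 encodes a histone deacetylase, not a demethylase. It had 142 and 139 TPM in Elys-KD cells, against 156 and 152 TPM in control cells, with a log2 difference of -0.17 (edgeR adjusted p = 0.0231). Without control replicate 1 its adjusted p was 0.162, and without control replicate 2 it was 0.0698. The demethylase genes Kdm4A and Kdm4B had log2 fold changes of -0.041 and 0.044.

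Of 8 other histone lysine methyltransferases, only Set1, which methylates H3K4, passed (12.5%, against 16.6% of all tested genes in either direction). Set1 had 20.7 and 18.6 TPM in Elys-KD cells, against 21.9 and 22.1 TPM in control cells (log2 fold change -0.22, edgeR adjusted p = 0.0204). Its adjusted p was 0.0653 without control replicate 1 and 0.0738 without control replicate 2. The median log2 fold change of these 8 genes was -0.028, against -0.11 for the 8 heterochromatin and H3K9 methyltransferase genes. The 3 further HP1-type genes of the list had low levels, and neither of the 2 tested passed. HP6, also known as Umbrea, had a mean of 1.04 TPM in Elys-KD cells and 0.968 TPM in control cells, rhi had 0.235 TPM in Elys-KD cells and 0.295 TPM in control cells, and HP1e had 0 and 1 estimated counts in Elys-KD cells and 0 in both control libraries. HP1D3csd, a gene outside the lists that was named after its values were seen, had 40.2 and 38 TPM in Elys-KD cells, against 51.7 and 51.4 TPM in control cells. Its log2 difference was -0.40 (edgeR adjusted p = 0.00136), and it was not refitted under the alternatives.

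**Figure D4:**
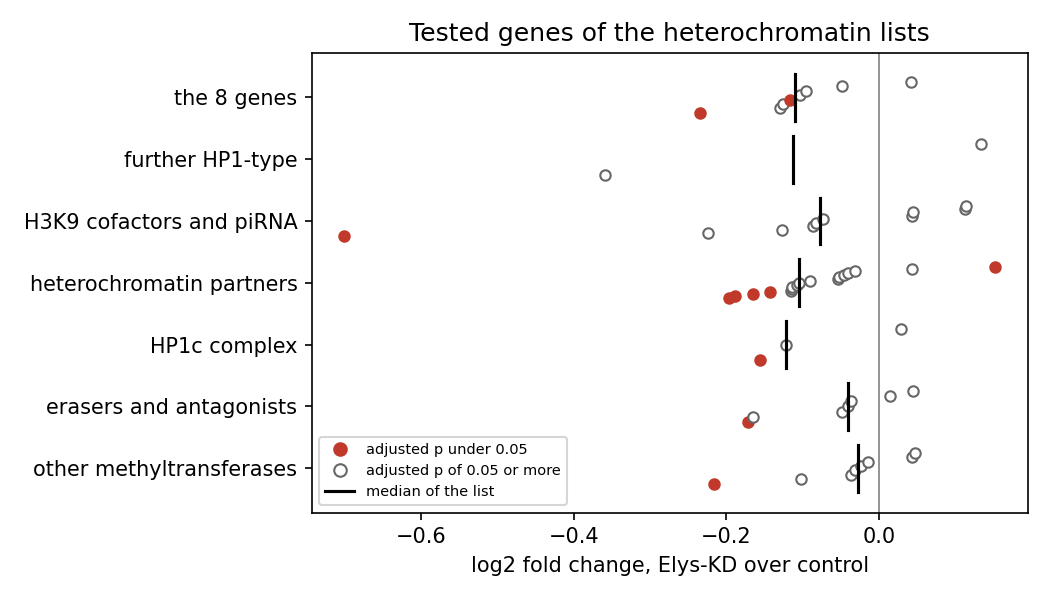
Log2 fold change, Elys-KD over control, of the tested genes in each list (points, filled where edgeR's adjusted p was under 0.05; vertical bars, medians). Medians of all lists lie below 0, from -0.12 (HP1c complex) to -0.028 (other methyltransferases), and piwi lies farthest out at -0.70. The HP1c complex list has only 3 tested genes. The further HP1-type list has 2, HP6 (0.13) and rhi (-0.36), of opposite sign and with low counts.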

How the data were processed

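Poly(A+) RNA of 4 S2 libraries (2 Elys-KD, 2 Control-KD, grouped by the labels) was used. The authors quantified genes of FlyBase r5.57 on dm3/R5 with Salmon and deposited, per gene and library, the estimated count (not normalized), the TPM (scaled by effective length and library), and the length and effective length in bp. Symbols were matched for 13389 of 13937 identifiers.

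Estimated counts were rounded and tested in R 4.3.3 with edgeR 4.0.16 (TMM, filterByExpr, glmQLFit, glmQLFTest, no block, Benjamini-Hochberg over 9156 genes, threshold 0.05). Standard errors are the log2 fold change over the root of F. Counts were called whole within 0.001. By their labels the replicates share only a number, and p-values measure the spread between these samples. Alternatives covered DESeq2 1.42.0, limma 3.58.1 on log2(TPM + 1) and log2(TPM + 0.1) with a filter of 1 TPM in 2 libraries or none, RLE factors, library totals, no filter on low counts, effective length offset, replicate block and leaving out each library. Summing overlapping genes (Release 6 table, names only) was chosen after seeing the data. It is 1 of the 14 alternatives, and it left G9a, which has no overlapping gene there, almost unchanged. The steps were tested on simulated counts. Tables and plots used Python 3.11.15 and Matplotlib 3.10.9.

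The gene with FlyBase symbol Su(var)205 is called HP1a, its protein. Members and lists were chosen with earlier results of these data known. Named genes were the 8 members, Elys, eIF2gamma, the genes of each list with an adjusted p under 0.05 (or else its 2 most expressed), and the 3 genes nearest to HP1a. Others named (wde, row, Ubqn, Kdm4A, Kdm4B, HP1e, HP1D3csd, overlapping genes and markers) were chosen after seeing their values. The listed genes sov, vas and nos were not matched. Sequences, gene positions and the embryo domains were not analysed here.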

Additional observations from a re-analysis of the deposited data

How the results depend on the processing

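The 8 genes had at least 2465 estimated counts in every library, and each group had 2 libraries. Neither another depth nor another number of libraries above 2 was tried. No scaling moved the median of all genes by more than 0.027 on the log2 scale, and every one of the 8 genes kept its sign in all alternatives. Leaving out 1 library leaves a lone sample in its group, which is assumed to vary like the others.

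The G9a value was -0.16 and the call ended in limma on log2(TPM + 1) (adjusted p = 0.141, or 0.276 with no filter on low values), and -0.18 on log2(TPM + 0.1), and it lay between -0.285 and -0.183 with each library left out. For Su(var)3-7 the call ended with DESeq2 (-0.12), library totals (-0.090), no filter on low counts (-0.12), the effective length offset (-0.090), the replicate block (-0.12), limma on log2(TPM + 1) with or without the filter (-0.055) and on log2(TPM + 0.1) (-0.057), summed overlapping genes (-0.061), and each library left out (-0.125 to -0.109). HP1a passed with DESeq2 (-0.13), the effective length offset (-0.14) and limma on log2(TPM + 1) and log2(TPM + 0.1) (-0.11 in each). The cause of these differences was not tested.

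Of the 8 genes, 1 was called lower with library totals, no filter, the replicate block, limma on log2(TPM + 1) or log2(TPM + 0.1), or summed overlapping genes, 0 in limma with no filter, and 0 to 1 with a library left out. Their median was -0.11 with DESeq2, -0.12 with no filter, -0.083 with library totals, -0.079 in each limma fit and -0.121 to -0.086 with a library left out. With overlapping genes summed it was -0.067, a value that also holds the changes of those other genes. In the other lists, the count lower was 4 in limma on either pseudocount, 0 in limma with no filter and 1 to 10 with a library left out. The 1 higher gene became 0 with DESeq2, no filter, the replicate block and all limma fits, and 0 to 1 with a library left out. HP6, with 11 to 22 counts per library, turned to -0.45 without Elys-KD replicate 2, within a range up to 0.55 with each library left out. With a library left out, the HP1b share differed by 0.114 to 0.328 percentage points, that of HP1c by 0.0075 to 0.374 and that of HP1a by -0.591 to -0.232.

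Over all genes, the 739 called higher became 487 with no filter on low counts, 292 in limma with no filter and 409 to 738 with a library left out. Library totals gave 976 higher and 570 lower. The 784 called lower became 515 with the replicate block, 500 and 491 in limma on log2(TPM + 1) and log2(TPM + 0.1), 159 in limma with no filter and 340 to 773 with a library left out. By both rules, 233 genes were higher and 59 lower, which became 89 and 21 at a TPM ratio of 2, 141 higher in limma with no filter, and 45 to 96 lower with a library left out.

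With the replicate block the calls of Su(var)3-7 (edgeR adjusted p = 0.149), D1 (0.107), woc (0.0969), HDAC1 (0.0712) and moi (0.0810) ended. The labels do not say whether same-numbered libraries were handled together. The correlation of deviations over 9156 genes was -0.086 for same-numbered libraries and 0.086 for the other pairing. With 2 libraries per group these values mirror each other, so they cannot show whether the samples were paired. Effective length differed in the other direction than listed length, by 19.4 bp for HP1a, 17 bp for HP1b, 18.5 bp for HP4 and 0.275 bp for G9a, because fragments were shorter in Elys-KD libraries.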
